A study of Mus musculus with 6 samples.

Results

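S3 cells are the epithelial cells of the last, straight stretch of the proximal tubule, and 2453 of the 76774 cell barcodes from kidneys of sham and DOCA-salt mice were chosen as S3 cells by their own transcripts. A barcode was kept when it held at least 3000 UMIs (unique molecular identifiers, each standing for 1 captured transcript molecule), at most 50% of them from mitochondrial genes, at least 4 UMIs of Slc7a13 and Slc22a30 together with at least 1 of each, and 0 UMIs of Slc5a2, Slc12a1, Ptprc and Havcr1. Slc7a13 encodes a cystine and acidic amino acid carrier and Slc22a30 an organic anion transporter, and both mark S3 cells of the mouse. The excluding genes mark the first tubule segment (Slc5a2), the thick ascending limb (Slc12a1), leukocytes (Ptprc) and injured proximal tubule (Havcr1, which encodes Kim-1). The sham mice gave 480, 712 and 355 S3 cells and the DOCA-salt mice 484, 172 and 250.

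The proximal tubule takes back most of the filtered salt, glucose, amino acids and phosphate, and its S3 segment, in the outer stripe of the outer medulla, also secretes organic anions and makes ammonia. Its blood supply is sparse and its oxygen use high, so it is known as a stretch that is injured early when blood flow falls. In the mouse the S3 segment is also where male and female kidneys differ most, since androgens act on many of its transporter and cytochrome P450 genes.

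The study asked how tubular cells take part in kidney injury that depends on the mineralocorticoid receptor. Male C57BL/6 mice of 8 to 10 weeks were used, and the kidneys of 3 sham and 3 DOCA-salt mice were dissociated with collagenase and sequenced with 1 droplet library per mouse. In DOCA-salt mice the left kidney was removed, and 1 week later a pellet of 50 mg deoxycorticosterone acetate (DOCA, a mineralocorticoid) was placed under the skin and 1% NaCl was given as drinking water for 21 days. Sham mice had sham surgery, with no kidney removal described for them, received no pellet and drank normal water. Loss of 1 kidney, DOCA and salt therefore cannot be told apart in any comparison between the groups.

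The chosen cells carried most genes of the S3 segment that the rule did not use at a higher level than S1 cells did, beside genes of the earlier segments. In sham mice, Slc6a18 (a carrier of neutral amino acids) had 225 CPM (a gene's UMIs scaled to a common library total) in the summed S3 cells and 13.2 CPM in S1 cells, taken as barcodes with at least 2 Slc5a2 UMIs and at most 1 UMI of the S3 markers. Acsm3 (a medium-chain acyl-CoA synthetase) had 150.1 against 4.67 CPM, Slc5a1 (the high-affinity glucose carrier SGLT1) 35.2 against 2.63 CPM, and Slc5a12 (a lactate carrier of the early tubule) 18.7 against 639 CPM. Of 20 S3 markers outside the rule 19 were higher in S3 than in S1 cells of sham mice, the exception being Bcat1 (2.05 against 4.20 CPM), and 6 of the 20, among them Cyp7b1 (8.61 against 3.80 CPM), were below 10 CPM in S3 cells. Of 15 markers of the S1 and S2 segments 11 were lower in S3 cells and 4 higher. Several were abundant in S3 cells, such as the phosphate carrier Slc34a1 (3759.5 against 4192 CPM) and the fatty acid carrier Slc27a2 (2123 against 430.3 CPM). These levels are a description, because the same cells were picked by related genes. The comparison was with S1 cells only, and whether S2 cells are among the chosen cells was not tested. Of the genes that chose the cells, Slc7a13 had 484, 452 and 645 CPM in sham and 403, 368 and 416 CPM in DOCA-salt mice, and Slc22a30 had 389.6, 423 and 446 CPM in sham and 406, 386 and 436 CPM in DOCA-salt mice. Cells just inside the threshold, with 4 UMIs of the 2 markers, had 114 to 333 CPM of Slc6a18 over the 6 mice, and cells just outside it, with 3 UMIs, had 106 to 279.9 CPM.

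The S3 cells of a mouse summed to 4200458 to 10069552 UMIs in sham and 2656904 to 6776296 UMIs in DOCA-salt mice, with a median of 11398 to 15004 UMIs per cell. Mitochondrial genes gave a median of 13.8% to 22.4% of a cell's UMIs. Libraries shared 33 to 69 barcode sequences with each other, and no shared sequence was that of an S3 cell in both libraries of a pair. Sham mouse 2 stood apart: Umod, the most abundant transcript of the thick ascending limb, had a UMI in 32.3% of its S3 cells and in 48.8% to 80.6% of those of the other 5 mice, and the excluding genes removed 40.0% of its marker-positive cells against 55.3% to 68.1% elsewhere. Where a called gene lost its call without a single mouse, those mice are therefore named beside it.

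S3 cells made up a lower mean share of the barcodes within the UMI and mitochondrial limits in DOCA-salt mice, but the groups overlapped. The shares were 6.25, 11.6 and 5.44% in the sham mice and 6.19, 2.09 and 3.55% in the DOCA-salt mice. The means were 7.76% ± 3.34 (SD, n = 3) and 3.95% ± 2.07 (SD, n = 3), and an exact two-sided permutation test gave p = 0.2, where 0.1 is the smallest p that 3 mice against 3 can give. The difference of the means, DOCA-salt minus sham, was -3.81 percentage points, and -1.90 without sham mouse 2. With each barcode thinned to 3000 UMIs before the rule was applied, the shares were 3.54% ± 0.572 and 1.30% ± 0.702 (SD, n = 3 each) without overlap, and the exact p was 0.1. Without the Slc5a2 and Slc12a1 conditions, an alternative chosen after the data were seen, they were 17.9% ± 2.12 and 8.65% ± 4.18 (SD, n = 3 each), again without overlap and with an exact p of 0.1. The Havcr1 condition alone took out 0.280% to 0.560% of the otherwise eligible cells in sham mice and 3.20% to 4.94% in DOCA-salt mice. Each of these rules kept a condition on Slc7a13 and Slc22a30. The median Slc7a13 UMIs of an S3 cell were 6, 5 and 6 in sham and 4, 3 and 3 in DOCA-salt mice. For Slc22a30 the medians were 5, 5 and 4 in both groups. The part of the marker levels in the shares was not tested.

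Within S3 cells, 510 of the 11946 genes tested were higher in DOCA-salt mice, which is 4.27% of them, and 177 were lower, which is 1.48%. The test was edgeR's quasi-likelihood test on the UMIs summed per mouse, with Benjamini-Hochberg adjusted p below 0.05, and changes are log2 changes of DOCA-salt against sham with their standard error (SE). Levels are CPM scaled by TMM factors (edgeR's correction for RNA composition). Over all genes the median log2 change was -0.02 and 27.2% of genes had groups that did not overlap. Counts of called genes in the lists below are to be read beside the shares of 4.27% and 1.48%. A single called gene is no result about its list. Leaving out sham mouse 2 gave 857 higher and 878 lower genes, and leaving out each of the other mice gave 199 to 309 higher and 37 to 73 lower genes.

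Of 14 genes tested with a known male bias in the mouse kidney, 7 fell and 1 rose in S3 cells of DOCA-salt mice, with a median log2 change of -0.79. Cyp4a12a, an androgen-driven cytochrome P450 that makes the vasoconstrictor 20-HETE from arachidonic acid, lies on chromosome 4, bases 115156243 to 115190012, plus strand of GRCm39. It had 16.9, 28.5 and 30.5 CPM in the sham mice and 1.94, 0.361 and 1.30 CPM in the DOCA-salt mice (log2 change -4.15, SE 0.37, adjusted p = 0.000146). The highest DOCA-salt mouse was below the lowest sham mouse by several fold. Its neighbour Cyp4a12b, whose near-identical transcripts may share reads with it, had 16.5, 18.2 and 18.1 CPM in sham and 4.62, 3.25 and 6.16 CPM in DOCA-salt mice (log2 change -1.90, SE 0.23, adjusted p = 0.000859).

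Slco1a1, which encodes a carrier of organic anions and steroid conjugates, lies on chromosome 6, bases 141853007 to 141892690, minus strand of GRCm39. It had 196, 119 and 228 CPM in the sham mice and 29.7, 9.39 and 18.8 CPM in the DOCA-salt mice, and every DOCA-salt mouse was far below every sham mouse (log2 change -3.14, SE 0.39, adjusted p = 0.00531). Odc1, the rate-limiting enzyme of polyamine synthesis, lies on chromosome 12, bases 17594383 to 17601507, plus strand and had 678, 708 and 711 CPM in sham and 253, 213 and 288 CPM in DOCA-salt mice (log2 change -1.47, SE 0.16, adjusted p = 0.000364). Its levels were tight within each group and did not overlap. Cndp2, a cytosolic dipeptidase, went from 1025 ± 354 to 358 ± 65.8 CPM (mean ± SD, n = 3 each, log2 change -1.51, SE 0.26, adjusted p = 0.00707). Acsm3 went from 155 ± 39.7 to 66.5 ± 14.4 CPM (log2 change -1.21, SE 0.20, adjusted p = 0.00546) and Cyp4b1, a fatty acid hydroxylase, from 1508 ± 220.1 to 814 ± 73.5 CPM (log2 change -0.89, SE 0.17, adjusted p = 0.0114). Agt, the precursor of angiotensin peptides, was the 1 gene of the group that rose, from 21.8 ± 3.42 to 52.6 ± 5.61 CPM (log2 change 1.25, SE 0.16, adjusted p = 0.00110). Kap, the kidney androgen-regulated protein and the most abundant transcript of the group, had 46697, 38912 and 57486 CPM in sham and 53008, 33168 and 41734 CPM in DOCA-salt mice, with overlapping groups and a log2 change of -0.16 ± 0.23 (adjusted p = 0.732). The part of free RNA in the level of Kap was not tested. Leaving out 1 mouse at a time ended the calls of Cyp4b1 without DOCA-salt mouse 1 or 3, with adjusted p of 0.0622 to 0.0795. The other 7 called genes of the group passed in all 6 of these fits.

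**Figure D1:**
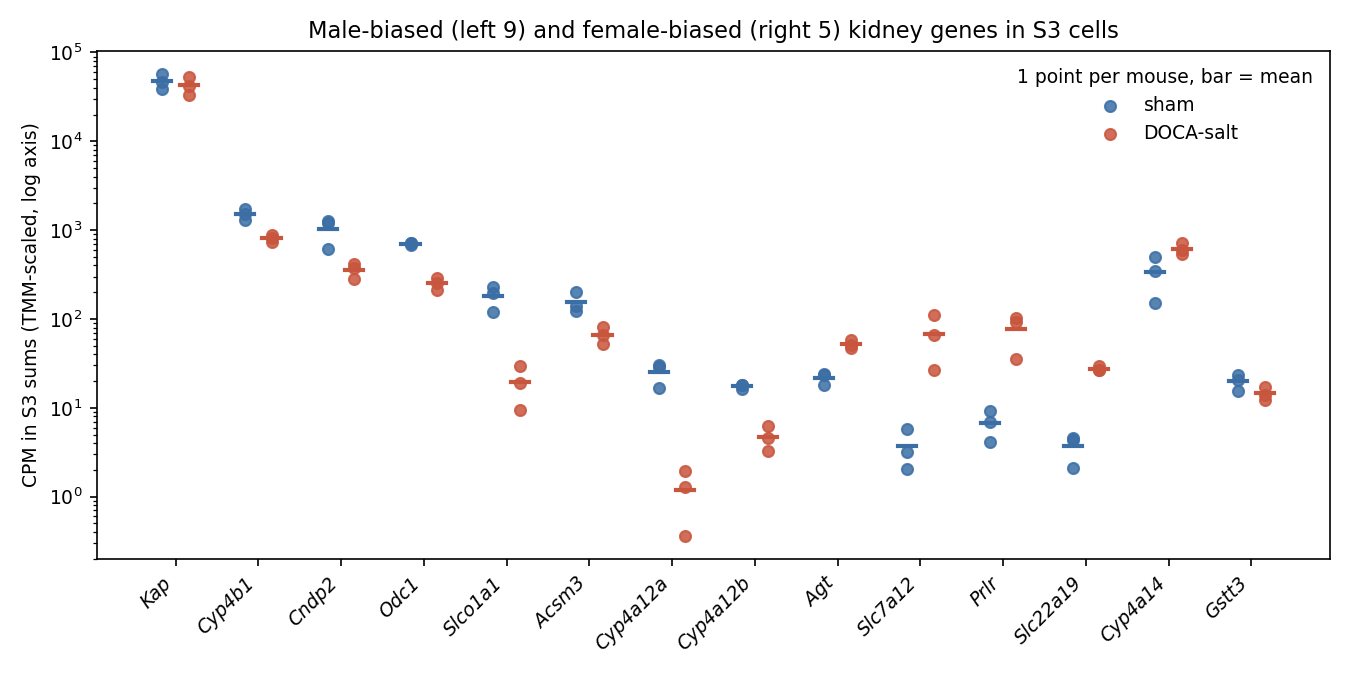
CPM in the summed S3 cells of each mouse for genes with a male or female bias in the mouse kidney, on a log axis, with 1 point per mouse and a bar at the group mean. Cyp4a12a, Slco1a1 and Odc1 are lower in all 3 DOCA-salt mice without overlap, and Slc22a19 and Prlr are higher in all 3 DOCA-salt mice.

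Of the 5 genes with a female bias, all tested, 3 rose and none fell, and the median log2 change was 2.96. Slc22a19, an organic anion transporter of the S3 segment, lies on chromosome 19, bases 7650426 to 7688675, minus strand of GRCm39. It had 4.60, 2.12 and 4.40 CPM in the sham mice and 26.7, 26.4 and 29.5 CPM in the DOCA-salt mice (log2 change 2.96, SE 0.26, adjusted p = 0.000146). The DOCA-salt mice were close to each other and all were far above the sham mice. Prlr, the prolactin receptor, had 6.98, 9.17 and 4.14 CPM in sham and 93.2, 102 and 35 CPM in DOCA-salt mice (log2 change 3.42, SE 0.45, adjusted p = 0.00793), and Slc7a12, a carrier related to Slc7a13 that is found in female S3 cells, had 3.21, 5.79 and 2.07 CPM in sham and 27, 111 and 66.2 CPM in DOCA-salt mice (log2 change 4.03, SE 0.65, adjusted p = 0.0276). Slc22a7, the organic anion transporter OAT2 and a gene of the S3 marker list, had 9.21, 5.99 and 18.9 CPM in sham and 30.4, 26.7 and 49 CPM in DOCA-salt mice (log2 change 1.74, SE 0.40, adjusted p = 0.0439). Calls were lost when 1 mouse was left out for Prlr without sham mouse 1, Slc7a12 without sham mouse 1, 2 or 3 or DOCA-salt mouse 3, and Slc22a7 without sham mouse 1 or DOCA-salt mouse 1, 2 or 3, with adjusted p of 0.0546 to 0.165. Slc22a19 stayed past the threshold in all 6 fits. The call of Slc7a12 was also lost with library size only, without a filter on low counts and at 20% mitochondrial UMIs (adjusted p 0.0535 to 0.0851).

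The promoters of the 2 transporters are shown because Slco1a1 and Slc22a19 are a male-biased and a female-biased carrier of the same segment that changed in opposite directions. They are 300 bases from the RefSeq table on GRCm38.p6, from 250 bases before to 50 after the start site, on the gene's own strand, and capitals mark matches to AGAACA or its reverse complement TGTTCT, the core of the element bound by androgen and corticosteroid receptors. The Slco1a1 promoter is chr6:141946913-141947212 (minus strand) and the Slc22a19 promoter chr19:7711261-7711560 (minus strand).
Slco1a1: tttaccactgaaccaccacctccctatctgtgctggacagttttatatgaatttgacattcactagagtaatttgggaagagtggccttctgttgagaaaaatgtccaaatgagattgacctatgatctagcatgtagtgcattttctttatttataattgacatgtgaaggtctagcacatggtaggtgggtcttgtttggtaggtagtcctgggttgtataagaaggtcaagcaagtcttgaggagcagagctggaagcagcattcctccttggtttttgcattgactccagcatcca
Slc22a19: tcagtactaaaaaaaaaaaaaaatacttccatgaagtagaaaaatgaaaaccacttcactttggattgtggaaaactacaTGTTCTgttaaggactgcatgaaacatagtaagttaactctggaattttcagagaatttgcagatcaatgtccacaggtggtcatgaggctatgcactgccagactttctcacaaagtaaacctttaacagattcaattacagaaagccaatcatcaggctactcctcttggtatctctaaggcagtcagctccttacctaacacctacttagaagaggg
The Slco1a1 window held 0 matches and the Slc22a19 window 1, and 19% of all 32851 promoters of this length held at least 1. A match is a description of letters and not a shown binding site.

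A small set of S3 cells that held Cyp7b1 had a far higher level of Slc7a12 in each DOCA-salt mouse, and in 2 of the 3 these cells carried most of its transcripts. Cyp7b1, an oxysterol hydroxylase listed as an S3 gene, had 7.39, 1.54 and 18.4 CPM in sham and 39.4, 113 and 84.6 CPM in DOCA-salt mice, without overlap but not past the test (log2 change 3.32, SE 0.89, adjusted p = 0.114). It did pass by DESeq2 (3.13, adjusted p = 0.0229), after thinning (2.43, adjusted p = 0.00241) and without the Slc5a2 and Slc12a1 conditions (2.17, adjusted p = 0.00988). Its UMIs lay in few cells: 9, 7 and 6 cells of the sham mice (1.88%, 0.983% and 1.69% of their S3 cells) and 23, 17 and 21 cells of the DOCA-salt mice (4.75%, 9.88% and 8.40%). After thinning to 3000 UMIs, 0.281% to 1.67% of sham and 2.69% to 6.40% of DOCA-salt S3 cells had a Cyp7b1 UMI. Among cells with at least 2 Ptprc UMIs, which should lack the gene, the thinned shares were 0.427% to 2.02% in sham and 0.781% to 1.20% in DOCA-salt mice, from median depths of 4722 to 6958 UMIs. In each sham mouse the S3 share was below that of its own Ptprc cells, and in each DOCA-salt mouse it was above it.

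In DOCA-salt mice, S3 cells with a Cyp7b1 UMI had 272, 782 and 644 CPM of Slc7a12, and those without had 14.9, 13 and 15 CPM. The cells with Cyp7b1 held 85, 278 and 162 Slc7a12 UMIs in DOCA-salt mice 1, 2 and 3, and the far more numerous cells without it held 96, 30 and 42. In DOCA-salt mouse 1 the cells without Cyp7b1 thus held the larger part. Sham S3 cells without a Cyp7b1 UMI had 3.09, 6.04 and 1.95 CPM of Slc7a12, all below the DOCA-salt cells without it. Serpina1f, a serine protease inhibitor, had 259, 619 and 366 CPM in the DOCA-salt cells with a Cyp7b1 UMI and 8.82, 18.2 and 5.70 CPM in those without. Bcat1, a branched-chain amino acid transaminase, had 70.4, 174 and 71.6 against 0.155, 1.30 and 2.14 CPM, and Slc22a13, a urate and nicotinate carrier, 92.8, 191 and 83.5 against 13, 16.1 and 7.13 CPM. The same cells had more Slc7a13 (912, 979 and 1149 against 374, 292 and 355 CPM), a gene of the rule, and less Odc1 (122, 90.01 and 187 against 257, 242 and 299.7 CPM). They also had less of the earlier-segment marker Slc34a1, with 1449, 751 and 1412 against 3300.0, 3976 and 3632 CPM in DOCA-salt and 2415, 1685 and 1488 against 3947, 3306 and 4134 CPM in sham mice. Among the leading genes of the DOCA-salt cells was also the fibroblast matrix gene Dcn (60.8, 551 and 0 CPM), and the part of such transcripts in the pattern was not tested. The 22 sham cells with a Cyp7b1 UMI shared part of this profile. They had 171, 21.4 and 245 CPM of Serpina1f against 0.141, 1.01 and 0 CPM in the other sham S3 cells, 117, 14.3 and 102 against 0.141, 0.705 and 0.975 CPM of Bcat1 and 99.1, 21.4 and 61.1 against 3.09, 1.91 and 2.68 CPM of Slc22a19. Their Slc7a12 was 9.01, 0 and 0 CPM, which rests on 1 UMI. Their leading genes after Cyp7b1 were Mettl7a2 and Serpina1f, followed by Slc26a4, and Hmx2 was among them, which like Slc26a4 is a gene of intercalated cells; the part of these was not tested either. These cells were singled out after their values were seen, so the values are a description. Without them the log2 change of Slc7a12 was 1.82 (adjusted p = 0.00331) and that of Slc22a19 2.86 (adjusted p = 7.79e-05).

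**Figure D2:**
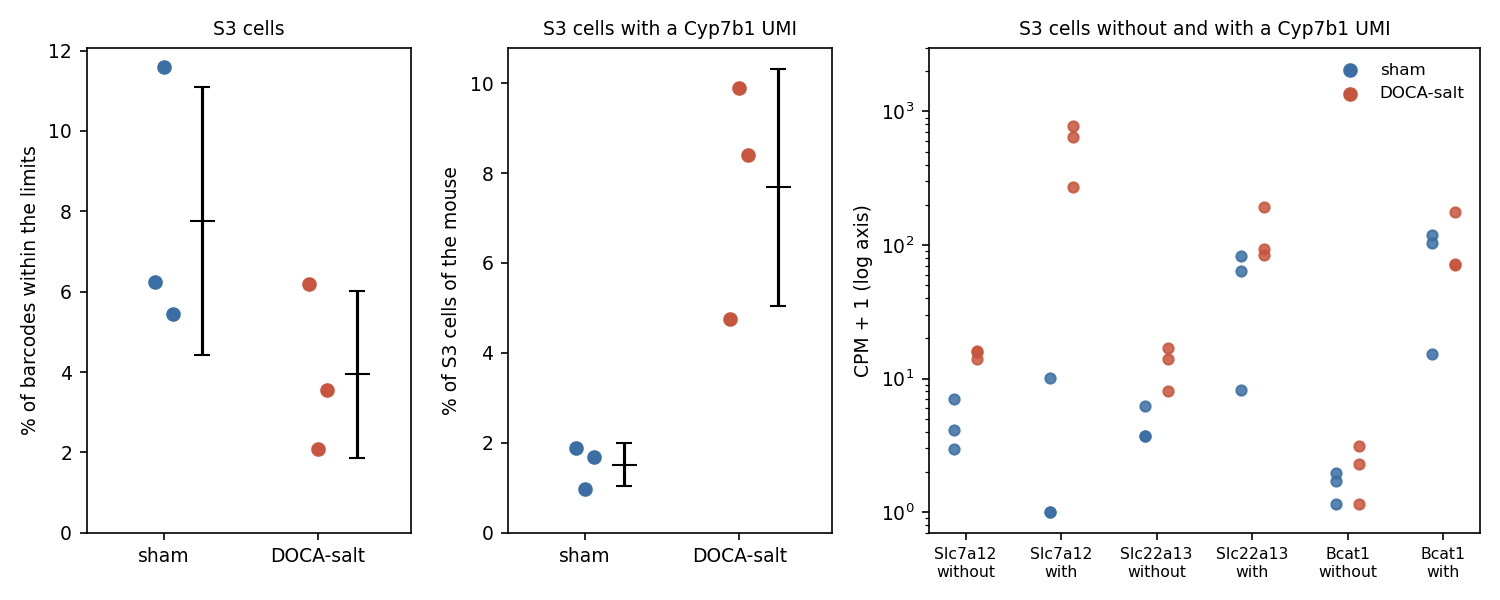
Share of S3 cells among barcodes within the limits (left) and share of S3 cells with a Cyp7b1 UMI (middle), in percent with 1 point per mouse and mean ± SD, and CPM + 1 of Slc7a12, Slc22a13 and Bcat1 in S3 cells without and with a Cyp7b1 UMI on a log axis (right). The S3 shares of the groups overlap, while 4.75% to 9.88% of DOCA-salt and 0.983% to 1.88% of sham S3 cells held a Cyp7b1 UMI.

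Transport genes of the S3 segment changed in both directions. Of 20 S3 marker genes outside the rule, 5 rose and 3 fell, and of 15 markers of the earlier segments 1 rose (Slc7a8) and 1 fell (Slc5a12, log2 change -0.71, SE 0.18, adjusted p = 0.0427). Of 22 amino acid and peptide carriers tested, 6 rose and none fell. Slc38a3, the glutamine importer SNAT3 of the basolateral membrane, had 6.56, 5.41 and 10.6 CPM in the sham mice and 40.7, 35.8 and 38.9 CPM in the DOCA-salt mice (log2 change 2.44, SE 0.22, adjusted p = 0.000146), with no overlap. Slc15a2, the high-affinity peptide carrier PEPT2, went from 52.1 ± 14.3 to 117 ± 13.2 CPM (log2 change 1.15, SE 0.18, adjusted p = 0.00416), and Slc7a8, a basolateral neutral amino acid exchanger, from 33.3 ± 4.71 to 62.5 ± 5.31 CPM (log2 change 0.90, SE 0.15, adjusted p = 0.00490). Slc6a20a and Slc43a2 rose by 0.85 ± 0.19 and 0.58 ± 0.15 (adjusted p 0.0252 to 0.0424). Slc3a1, the partner chain of Slc7a13, Slc6a18 and Slc5a1 did not pass, with log2 changes of 0.28 ± 0.13, 0.39 ± 0.18 and 0.48 ± 0.18 (adjusted p 0.147 to 0.237). Without sham mouse 2, Slc5a1 passed, with 0.60 (adjusted p = 0.0463). With single mice left out, the test no longer called Slc5a12 without sham mouse 1 or 3 or DOCA-salt mouse 1, 2 or 3, Slc6a20a without sham mouse 1 or DOCA-salt mouse 1, 2 or 3, and Slc43a2 without sham mouse 1 or 3 or DOCA-salt mouse 1 or 3, with adjusted p of 0.0557 to 0.188. DESeq2 also missed Slc5a12 (adjusted p = 0.0803), as did edgeR with library size only (0.0568) and with Scrublet doublets removed (0.0585). Without the Slc5a2 and Slc12a1 conditions edgeR gave Slc7a8 a change of 0.39 (adjusted p = 0.0916).

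Among 27 organic ion carriers, 5 rose and 1 fell. Besides Slc22a19, Slc22a7 and Slco1a1, the carriers Slc22a13, Slc22a29 and Slc22a4 rose by 2.31 ± 0.44, 1.77 ± 0.38 and 0.59 ± 0.14 (adjusted p 0.0204 to 0.0355). Slc22a29 passed the filter on low counts through its DOCA-salt levels. Of 33 genes of sodium, phosphate, water and acid-base transport, only Slc13a2, the dicarboxylate and citrate carrier, was called, and it rose from 74 ± 8.42 to 119 ± 15.9 CPM (log2 change 0.69, SE 0.14, adjusted p = 0.0188). Napsa, an aspartic protease that counts as an S3 marker and as a gene of the endocytic route, rose from 774 ± 133 to 1537 ± 269 CPM (log2 change 0.99, SE 0.19, adjusted p = 0.0121). It was the 1 gene called among 20 of endocytosis. Lrp2 and Cubn, the megalin and cubilin receptors, had changes of 0.26 ± 0.19 and 0.63 ± 0.21 (adjusted p 0.104 to 0.438). Cubn passed without sham mouse 2, with 0.87 (adjusted p = 0.00983). In fits on 5 mice the threshold was missed by Slc22a13 without sham mouse 2 or 3, Slc22a29 without sham mouse 1 or 3 or DOCA-salt mouse 1 or 3, Slc22a4 without sham mouse 1 or 3 or DOCA-salt mouse 2 or 3, Slc13a2 without sham mouse 3 or DOCA-salt mouse 1 or 2, and Napsa without DOCA-salt mouse 3, with adjusted p of 0.0532 to 0.154.

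Genes of nitrogen metabolism changed in both directions. Of 32 genes of ammonia, arginine, creatine and polyamine metabolism, 3 rose and 3 fell, beside 4.27% higher and 1.48% lower of all genes. Pck1, the gluconeogenic enzyme that uses the carbon left from glutamine, had 960.1, 1265 and 1251 CPM in the sham mice and 2593, 1764 and 1996 CPM in the DOCA-salt mice (log2 change 0.87, SE 0.19, adjusted p = 0.0244) and was the 1 gene called among 17 of glucose transport and gluconeogenesis. Like Slc38a3, it showed no overlap between the groups. Ass1, which makes argininosuccinate on the way to arginine, fell from 1177 ± 133 to 562 ± 96.5 CPM (log2 change -1.07, SE 0.18, adjusted p = 0.00507). Arg2, the mitochondrial arginase, rose from a low level, with 0.558, 0.676 and 0.776 CPM in sham and 2.83, 7.22 and 6.49 CPM in DOCA-salt mice (log2 change 2.94, SE 0.48, adjusted p = 0.00454). Arg2 passed the filter on low counts through its DOCA-salt levels. Gatm, which starts creatine synthesis, had 173, 404 and 139 CPM in sham and 519, 299 and 499.7 CPM in DOCA-salt mice, with overlapping groups (log2 change 0.87, SE 0.42, adjusted p = 0.272). The calls lost when any 1 mouse was dropped were those of Pck1 without sham mouse 1 or 3 or DOCA-salt mouse 1 or 3, with adjusted p of 0.0647 to 0.117. Without sham mouse 2, Gatm passed the test, with a log2 change of 1.49 (adjusted p = 0.00341).

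In the lists of fatty acid and detoxification genes a minority of members was called. Of 45 genes of fatty acid oxidation and the peroxisome, 5 rose and 1 fell, with a median log2 change of 0.02. Pdk4, the kinase that shuts pyruvate out of the citrate cycle, had 312, 459 and 364 CPM in sham and 1112, 774 and 679 CPM in DOCA-salt mice (log2 change 1.18, SE 0.21, adjusted p = 0.00821). Acot1 (an acyl-CoA thioesterase), Hao2 (a peroxisomal hydroxy acid oxidase), Acox2 (a peroxisomal oxidase of bile acid side chains) and Vnn1 (a pantetheinase) rose by 1.17 ± 0.19, 0.92 ± 0.18, 0.84 ± 0.16 and 0.90 ± 0.20 (adjusted p 0.00507 to 0.0240). Acads, the short-chain acyl-CoA dehydrogenase, fell by 0.92 (adjusted p = 0.0116). Ppara, the lipid-sensing receptor, and Cpt1a, the entry step of oxidation, had changes of 0.24 ± 0.17 and -0.15 ± 0.15 (adjusted p 0.431 to 0.604). Refits on 5 mice dropped Hao2 and Acox2 without sham mouse 3, Vnn1 without sham mouse 1 or DOCA-salt mouse 1, 2 or 3, and Acads without DOCA-salt mouse 1 or 3, with adjusted p of 0.0559 to 0.106.

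Of 40 cytochrome P450 and conjugation genes, 5 rose and 4 fell. Their median log2 change was -0.04, and their summed level was 13965 to 15439 CPM in sham and 12786 to 13607 CPM in DOCA-salt mice, without overlap. Gsta2, a glutathione transferase, had 189.9, 233 and 138 CPM in sham and 522, 439 and 436 CPM in DOCA-salt mice (log2 change 1.31, SE 0.19, adjusted p = 0.00233). Aldh1a1, a retinal dehydrogenase, went from 5.11 ± 0.999 to 22 ± 3.07 CPM (log2 change 2.15, SE 0.21, adjusted p = 0.000223), and Gsta4, which detoxifies lipid aldehydes, from 3.41 ± 0.646 to 14.2 ± 5.28 CPM (log2 change 2.05, SE 0.30, adjusted p = 0.00253). Cyp2d26 and Cyp51, a sterol demethylase, rose by 1.32 ± 0.17 and 1.12 ± 0.18 (adjusted p 0.00123 to 0.00498), and Ugt2b38, a glucuronosyltransferase, fell by 1.17 (adjusted p = 0.0292). Of 34 genes of glutathione, Nrf2 and iron handling only Gsta2 and the iron exporter Slc40a1 (0.76 ± 0.20, adjusted p = 0.0480) were called. In that list 12 of 34 genes had a positive change, the median was -0.10, and the summed level was 33129 to 39106 CPM in sham and 28229.7 to 30111 CPM in DOCA-salt mice, also without overlap. Of 21 sterol synthesis genes 3 rose, among them Cyp51 and Sqle (0.67 ± 0.17, adjusted p = 0.0385). Cyp2e1 had 480.0, 340.2 and 712 CPM in sham and 431, 337 and 411 CPM in DOCA-salt mice, with overlapping groups (log2 change -0.37, SE 0.23, adjusted p = 0.376). Leaving out 1 mouse at a time ended the calls of Ugt2b38 without sham mouse 1, 2 or 3 or DOCA-salt mouse 3, Slc40a1 without sham mouse 1 or 3 or DOCA-salt mouse 1, 2 or 3, and Sqle without sham mouse 1 or 3 or DOCA-salt mouse 3, with adjusted p of 0.0537 to 0.171. Without sham mouse 2, Cyp2e1 had a log2 change of -0.60 (adjusted p = 0.0357).

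Respiratory chain transcripts were not called. None of 76 nuclear-encoded and none of 13 mitochondrially encoded genes passed, with median log2 changes of -0.28 and -0.17. Of the nuclear-encoded genes 1 had a positive log2 change. Their summed level was 31588 to 42526 CPM in sham and 30908 to 32171 CPM in DOCA-salt mice, so the groups overlapped. Of 26 nephron transcription factors 1 was called, Irx1, with 1.53, 0.869 and 2.84 CPM in sham and 3.28, 9.39 and 9.73 CPM in DOCA-salt mice (log2 change 2.17, SE 0.51, adjusted p = 0.0322). Irx1 passed the filter on low counts through its DOCA-salt levels. Most of its UMIs in DOCA-salt mice lay in few cells: S3 cells with a Cyp7b1 UMI held 14, 23 and 28 of its UMIs in the DOCA-salt mice and the other S3 cells 8, 3 and 2, and without those cells Irx1 was too low to test. Without the Slc5a2 and Slc12a1 conditions its change was 1.30 (adjusted p = 0.0536). Hnf4a, which maintains the proximal tubule state, had a change of -0.22 ± 0.15 (adjusted p = 0.432). Calls were lost when 1 mouse was left out for Irx1 without sham mouse 1 or DOCA-salt mouse 2 or 3, with adjusted p of 0.0981 to 0.138. Of 23 genes of glycolysis and hypoxia 1 was called: Pfkp, the platelet-type phosphofructokinase, went from 3.34 ± 1.31 to 15.3 ± 3.24 CPM (log2 change 2.31, SE 0.30, adjusted p = 0.00122).

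Among the genes with the largest falls outside these lists, Inmt, a methyltransferase of indoles and amines, had 1091, 793 and 1130.5 CPM in the sham mice and 264, 339 and 234 CPM in the DOCA-salt mice (log2 change -1.85, SE 0.20, adjusted p = 0.000364). Lpl, the lipoprotein lipase, went from 678 ± 177 to 224 ± 76.9 CPM (log2 change -1.59, SE 0.27, adjusted p = 0.00878), and Npm3, a nucleolar chaperone, from 73.4 ± 7.13 to 25.7 ± 7.34 CPM (log2 change -1.51, SE 0.18, adjusted p = 0.000894). S100g, the calcium carrier calbindin-D9k, Degs2, a sphingolipid desaturase, and Hsd17b11, a steroid dehydrogenase of lipid droplets, fell by 1.98, 1.44 and 1.24 (adjusted p 0.0176 to 0.0433). S100g had 799 CPM in sham and 159.8 CPM in DOCA-salt in cells with at least 2 Ptprc UMIs, which should lack it, and the part of free RNA in its change was not tested. Among the largest rises were Tcim (2.46 ± 0.28), Myof, a ferlin of membrane repair (2.36 ± 0.21), Gm5820 (2.11 ± 0.21), Ccdc141 (1.89 ± 0.15) and Rarres2, the chemoattractant chemerin (1.83 ± 0.21), with adjusted p 0.000116 to 0.000808. With single mice left out, the test no longer called S100g without sham mouse 1 or 3 or DOCA-salt mouse 1 or 3, Degs2 without sham mouse 1 or 3 or DOCA-salt mouse 3, and Hsd17b11 without DOCA-salt mouse 2 or 3, with adjusted p of 0.0597 to 0.139.

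Of 15 genes of the renin-angiotensin system and of brush border peptidases, 5 rose and none fell. Besides Agt, these included Mme (neprilysin), from 36.2 ± 4.54 to 67.8 ± 8.02 CPM (log2 change 0.90, SE 0.15, adjusted p = 0.00531), Mep1b (meprin beta), from 21.6 ± 5.09 to 53.6 ± 16 CPM (log2 change 1.30, SE 0.23, adjusted p = 0.00934), and Dpp4, by 0.64 ± 0.13 (adjusted p = 0.0162). Ace, Enpep and Anpep were not called. In fits on 5 mice the threshold was missed by Dpp4 without sham mouse 1 or 3 or DOCA-salt mouse 1 or 3, with adjusted p of 0.0581 to 0.0861. The call of Mme was lost after thinning (log2 change 0.48) and without cells with a Cyp7b1 UMI. Mep1b stayed called without those cells, with a smaller change of 0.69.

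Genes of corticosteroid action gave 1 rise and 1 fall of 18, beside 4.27% higher and 1.48% lower of all genes. Sgk1, a kinase induced by mineralocorticoids and glucocorticoids, had 136, 195 and 171 CPM in the sham mice and 647, 289 and 305 CPM in the DOCA-salt mice (log2 change 1.31, SE 0.30, adjusted p = 0.0402). DOCA-salt mouse 1 was the highest by far, and the groups did not overlap. Nr3c2, the mineralocorticoid receptor, was low and fell, with 20.4, 26.5 and 35.2 CPM in sham and 13.3, 12.6 and 18.2 CPM in DOCA-salt mice (log2 change -0.89, SE 0.22, adjusted p = 0.0402), and it had 98.8 CPM in sham and 41.9 CPM in DOCA-salt in cells with at least 2 Ptprc UMIs. Nr3c1, the glucocorticoid receptor, and Hsd11b1, which regenerates active glucocorticoid, had changes of 0.07 ± 0.13 and -0.45 ± 0.30 (adjusted p 0.405 to 0.797). The calls lost when any 1 mouse was dropped were those of Sgk1 without sham mouse 1, 2 or 3, and Nr3c2 without sham mouse 3 or DOCA-salt mouse 1, 2 or 3, with adjusted p of 0.0655 to 0.158. The call of Nr3c2 was also lost at a marker sum of 8, after thinning, without the Slc5a2 and Slc12a1 conditions and without cells with a Cyp7b1 UMI (adjusted p 0.0518 to 0.464), and that of Sgk1 after thinning and without the Slc5a2 and Slc12a1 conditions (adjusted p 0.0550 to 0.101).

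The study centred on ATP release from tubular cells, and of 14 tested genes of ATP release and purine handling 2 rose and none fell. Nt5e (CD73), which makes adenosine from AMP outside the cell, had 94.6, 90.2 and 76.8 CPM in the sham mice and 284, 151 and 207 CPM in the DOCA-salt mice (log2 change 1.30, SE 0.20, adjusted p = 0.00398). Alpl, an alkaline phosphatase that also removes phosphate from nucleotides, went from 54.5 ± 2.87 to 91 ± 14.8 CPM (log2 change 0.75, SE 0.14, adjusted p = 0.0121). Panx1, the ATP channel, was too low to test, with a UMI in 0% to 0.417% of sham and 0.581% to 1.03% of DOCA-salt S3 cells. After thinning these shares were 0% to 0.581% over the 6 mice, below the 2.34% to 5.13% of cells with at least 2 Ptprc UMIs. P2rx4 and Nox4 had changes of -0.04 ± 0.18 and 0.19 ± 0.26 (adjusted p 0.723 to 0.925), and in both the groups overlapped. Refits on 5 mice dropped Alpl without sham mouse 1 or DOCA-salt mouse 1 or 3, with adjusted p of 0.0505 to 0.0615. After thinning the call of Alpl was also lost, with a log2 change of 0.23.

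Cells with a Havcr1 UMI had been left out, and among the remaining S3 cells 11 of 46 tested genes of tubular injury and repair rose and none fell. The median log2 change was 0.92, and their summed level was 2476 to 2565 CPM in sham and 4511 to 5370 CPM in DOCA-salt mice. Spp1, which encodes osteopontin, had 77.9, 172 and 128 CPM in the sham mice and 1574, 999 and 2361 CPM in the DOCA-salt mice (log2 change 3.71, SE 0.38, adjusted p = 0.00124). Every DOCA-salt mouse was several fold above every sham mouse. Spp1 alone accounts for most of the gain in the summed level. It had a UMI in 62.3% to 75.7% of sham and 97.7% to 100% of DOCA-salt S3 cells, and 405 CPM in sham and 1387 CPM in DOCA-salt in cells with at least 2 Ptprc UMIs; the part of free RNA was not tested. Vcam1, an adhesion molecule of unresolved tubular injury, was low, with 0.698, 1.16 and 2.59 CPM in sham and 5.22, 19.9 and 7.13 CPM in DOCA-salt mice (log2 change 2.93, SE 0.60, adjusted p = 0.0226). Vcam1 passed the filter on low counts through its DOCA-salt levels. The fibrinogen chains Fgg and Fga rose by 2.04 ± 0.41 and 1.25 ± 0.27, Dcdc2a by 1.47 ± 0.35, Itgb6, an integrin chain that activates TGF-beta, by 0.77 ± 0.16 and Icam1 by 0.72 ± 0.15 (adjusted p 0.0150 to 0.0480). Lcn2, Krt8 and Krt18 did not pass, with changes of 1.82 ± 0.66, 0.09 ± 0.24 and 0.42 ± 0.43 (adjusted p 0.129 to 0.863). Leaving out 1 mouse at a time ended the calls of Vcam1 without sham mouse 1 or 2, Fgg without sham mouse 1, 2 or 3 or DOCA-salt mouse 1 or 3, Fga without sham mouse 1 or 3 or DOCA-salt mouse 1 or 3, Dcdc2a without sham mouse 1, 2 or 3 or DOCA-salt mouse 2 or 3, Itgb6 without sham mouse 1 or 3 or DOCA-salt mouse 3, and Icam1 without sham mouse 1 or 3 or DOCA-salt mouse 1, 2 or 3, with adjusted p of 0.0518 to 0.147. Of the 11 called genes, Spp1 passed in all 6 fits.

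**Figure D3:**
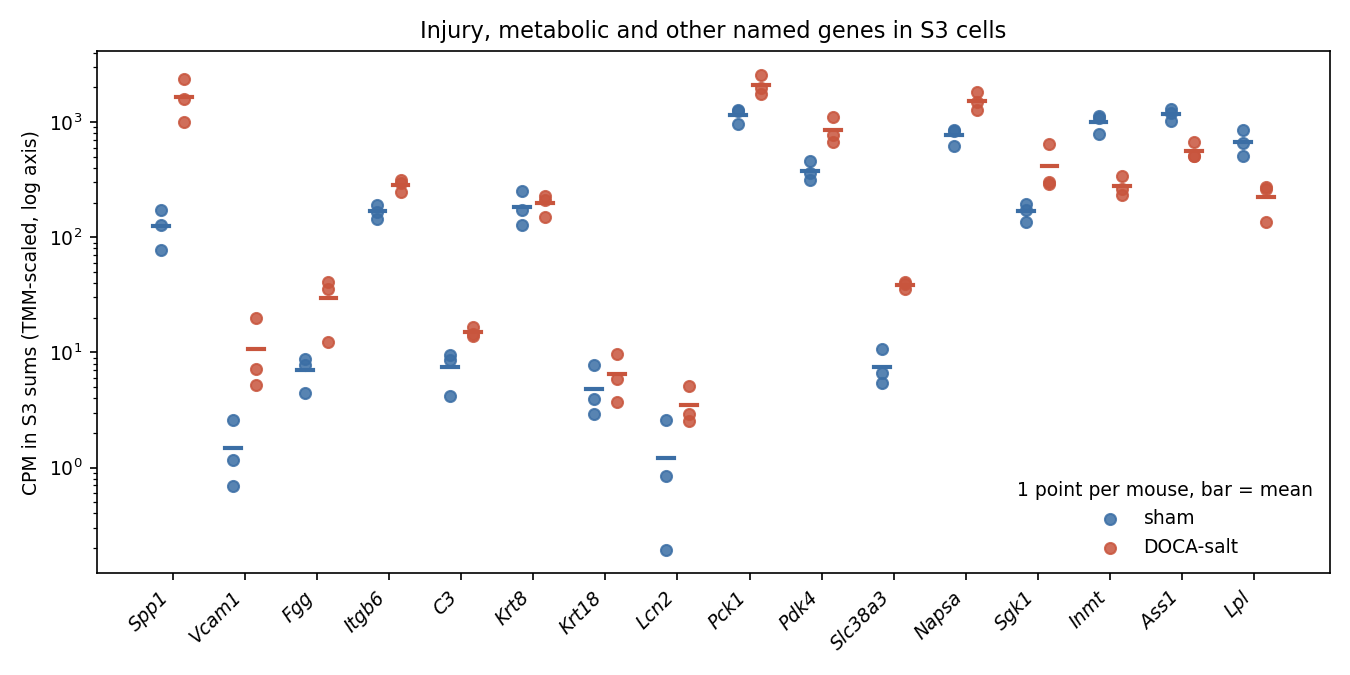
CPM in the summed S3 cells of each mouse for injury, metabolic and other named genes, on a log axis, with 1 point per mouse and a bar at the mean. Spp1 lies at 999 to 2361 CPM in DOCA-salt and 77.9 to 172 CPM in sham mice, and Ass1 and Lpl are lower in all DOCA-salt mice.

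Per cell, the injury genes took a median of 0.198% to 0.221% of the UMIs of a sham S3 cell and 0.376% to 0.455% of a DOCA-salt S3 cell. The tenth percentile of the DOCA-salt cells, 0.219% to 0.280%, was close to or above the sham median, so the summed level of the list differed over the bulk of the cells. Spp1 accounts for most of the gain in that sum, and the part of free RNA in it was not tested. Of 20 genes of the unfolded protein and amino acid stress response 3 rose: Hspa5 (the chaperone BiP), Manf and Xbp1, by 1.10 ± 0.22, 1.11 ± 0.22 and 0.51 ± 0.14 (adjusted p 0.0148 to 0.0495). Of 34 immediate early and stress genes, which also respond to dissociation, 3 rose, Nfkbiz, Rhob and Socs3, by 0.80 ± 0.17, 0.62 ± 0.16 and 0.97 ± 0.26 (adjusted p 0.0204 to 0.0489). Fos and Jun had changes of 0.55 ± 0.17 and -0.06 ± 0.18 (adjusted p 0.0858 to 0.880). Calls were lost when 1 mouse was left out for Hspa5 without sham mouse 1 or 3 or DOCA-salt mouse 1 or 3, Manf without sham mouse 1 or 3 or DOCA-salt mouse 3, Xbp1, Rhob and Socs3 without sham mouse 1 or 3 or DOCA-salt mouse 1, 2 or 3, and Nfkbiz without sham mouse 1 or DOCA-salt mouse 1 or 2, with adjusted p of 0.0615 to 0.247. Xbp1 was also missed by DESeq2, with DESeq2 size factors, at 6000 UMIs, at a marker sum of 8 and after thinning (adjusted p 0.0528 to 0.195), Rhob with DESeq2 size factors, at a marker sum of 8, after thinning, with Scrublet doublets removed and without the Slc5a2 and Slc12a1 conditions (adjusted p 0.0504 to 0.160), and Socs3 with DESeq2 size factors, at a marker sum of 8, with Scrublet doublets removed and without the Slc5a2 and Slc12a1 conditions (adjusted p 0.0503 to 0.302).

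Transcripts of other cell types also moved. Of 32 markers of other kidney and blood cells, 20 were tested, 5 rose and 1 fell, and their summed level was 148 to 425 CPM in sham and 281 to 504 CPM in DOCA-salt S3 cells. The macrophage genes C1qa, C1qb, C1qc and Lyz2 rose by 2.75 ± 0.50, 2.55 ± 0.51, 2.92 ± 0.44 and 2.74 ± 0.42 (adjusted p 0.00312 to 0.0152). These genes passed the filter on low counts through their DOCA-salt levels, so the count of rises in this list is a description. C1qa had 0.772 to 3.36 CPM in sham and 6.11 to 14.9 CPM in DOCA-salt S3 cells, against 1113 CPM in sham and 2391 CPM in DOCA-salt in cells with at least 2 Ptprc UMIs. Plvap, an endothelial gene, rose by 2.00 ± 0.37 (adjusted p = 0.00934), and Aqp3, a water channel of the collecting duct, fell by 1.08 (adjusted p = 0.0254). The rises of Apoe (2.62 ± 0.50), Sparc (3.41 ± 0.65), H2-Aa (1.82 ± 0.41), B2m (0.75 ± 0.16) and Ifitm3 (1.33 ± 0.31) concerned genes that macrophages or stromal cells carry at a higher level, with Apoe at 1915 CPM in sham and 10229.5 CPM in DOCA-salt and H2-Aa at 4424 CPM in sham and 5877 CPM in DOCA-salt in cells with at least 2 Ptprc UMIs (adjusted p 0.0181 to 0.0419). H2-Aa, B2m and Ifitm3 were the 3 genes called among 23 of interferon response and antigen presentation. The part of free RNA in these rises was not tested. With the doublets that Scrublet scored removed, Plvap had 0.83 (adjusted p = 0.300) and Ifitm3 0.07 (adjusted p = 0.924). With single mice left out, the test no longer called C1qa without sham mouse 1, C1qb without DOCA-salt mouse 3, Plvap without DOCA-salt mouse 1, Aqp3 without sham mouse 3 or DOCA-salt mouse 1, 2 or 3, Apoe without sham mouse 1, 2 or 3 or DOCA-salt mouse 3, Sparc without sham mouse 1, 2 or 3 or DOCA-salt mouse 1, H2-Aa without sham mouse 1 or 2 or DOCA-salt mouse 2 or 3, B2m without sham mouse 1 or 3 or DOCA-salt mouse 1 or 3, and Ifitm3 without sham mouse 1, 2 or 3 or DOCA-salt mouse 1 or 2, with adjusted p of 0.0517 to 0.181.

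Clock genes changed in opposite directions. The list of 14 clock genes was added after the values were seen, and 1 of them rose and 3 fell. Dbp, a clock output factor, had 46.2, 50.6 and 75.3 CPM in the sham mice and 9.09, 13.7 and 8.11 CPM in the DOCA-salt mice (log2 change -2.49, SE 0.24, adjusted p = 0.000204). Ciart, a repressor of the clock, had 28.5, 52 and 50.7 CPM in sham and 10.3, 14.8 and 12.3 CPM in DOCA-salt mice (log2 change -1.84, SE 0.25, adjusted p = 0.00166), and Nr1d1 (REV-ERB alpha) had 169.7, 186 and 93.6 CPM in sham and 54.3, 91.7 and 60.3 CPM in DOCA-salt mice (log2 change -1.15, SE 0.27, adjusted p = 0.0429). Arntl (BMAL1), which is repressed by Nr1d1, had 14.7, 11.2 and 7.76 CPM in sham and 34.1, 28.9 and 32.4 CPM in DOCA-salt mice (log2 change 1.48, SE 0.21, adjusted p = 0.00186). All 4 had groups without overlap, as had 27.2% of all genes. S1 cells gave log2 changes of -2.40 (SE 0.34, adjusted p = 0.0365) for Dbp, -2.49 (SE 0.28, adjusted p = 0.0192) for Ciart, -1.87 (SE 0.17, adjusted p = 0.0121) for Nr1d1 and 1.69 (SE 0.21, adjusted p = 0.0240) for Arntl. The hour at which each kidney was taken is not given in the sources used here. In fits of the S3 change on 5 mice the threshold was missed by Nr1d1 without sham mouse 1 or 2 or DOCA-salt mouse 1 or 3, with adjusted p of 0.110 to 0.151.

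The promoter of Ciart is shown because it held the most matches to CACGTG, the E-box bound by the clock factors, among the promoters examined here. It is chr3:95882179-95882478 (minus strand) of GRCm38.p6, cut as above from the RefSeq table, and capitals mark the E-boxes.
Ciart: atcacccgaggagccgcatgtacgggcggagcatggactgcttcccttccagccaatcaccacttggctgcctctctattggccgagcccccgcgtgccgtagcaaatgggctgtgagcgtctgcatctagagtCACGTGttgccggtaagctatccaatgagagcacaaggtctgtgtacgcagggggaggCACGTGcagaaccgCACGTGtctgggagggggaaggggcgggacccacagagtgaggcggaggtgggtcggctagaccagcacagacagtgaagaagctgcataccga
The window held 3 matches, while 7.15% of all 32851 promoters of this length held at least 1 on either strand. The windows of Dbp, Nr1d1 and Arntl, the other clock genes that were called, held 0.

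**Figure D4:**
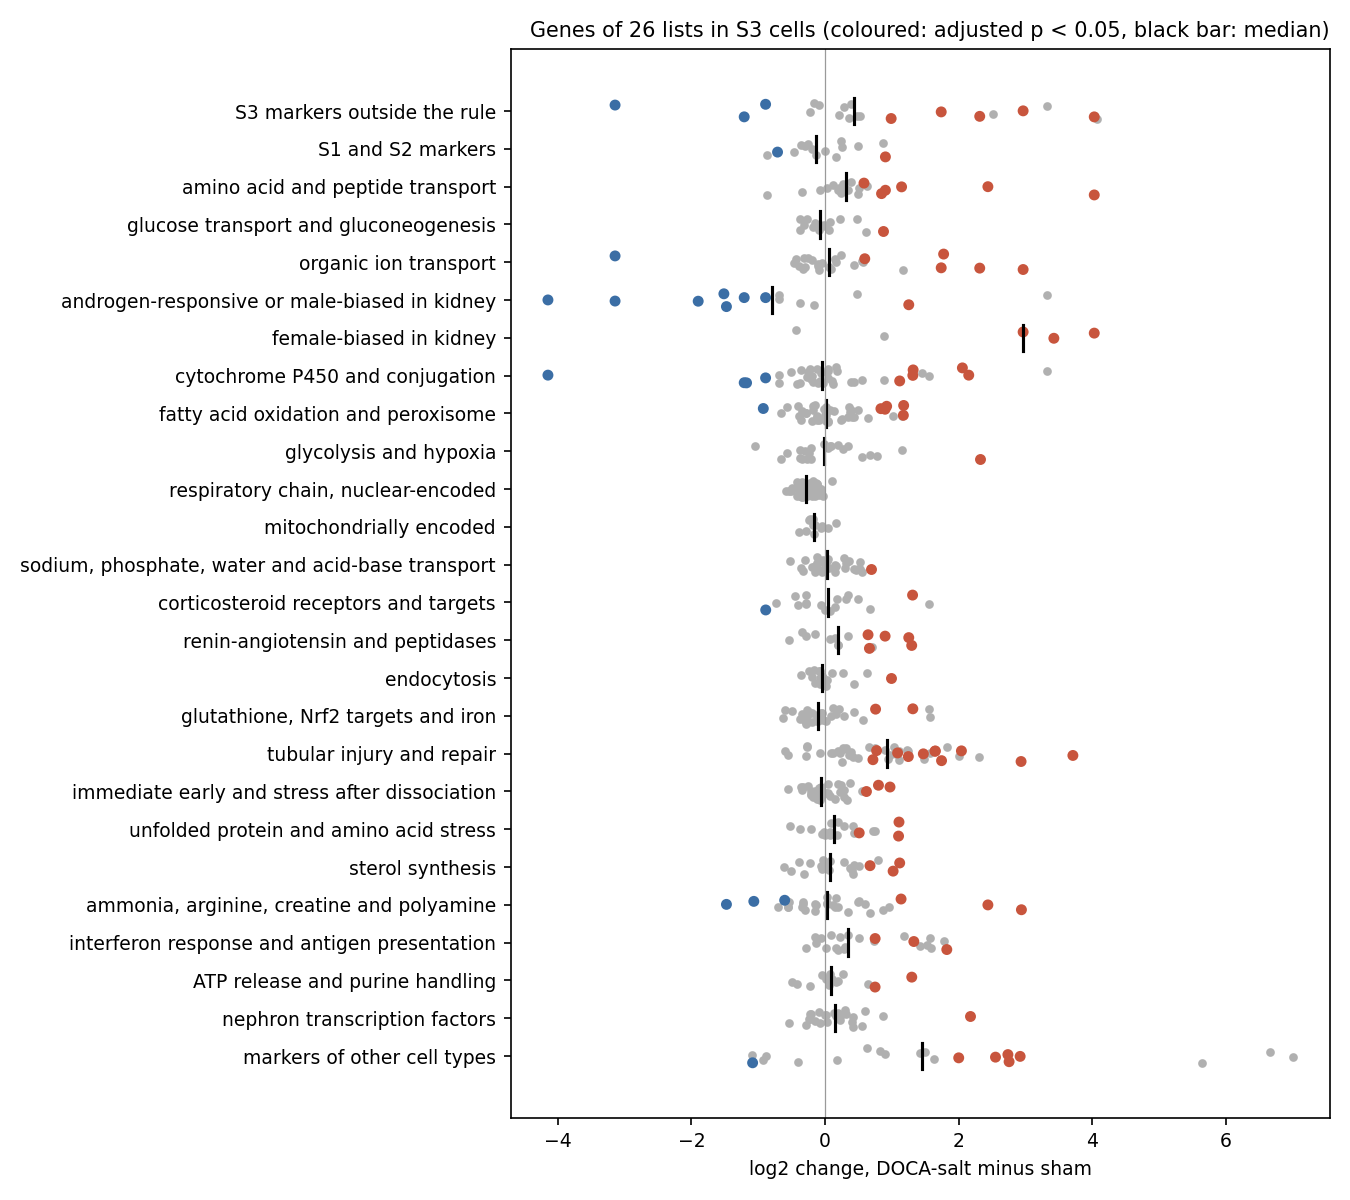
Log2 change in S3 cells of each tested gene of the 26 lists, with 1 point per gene, called genes coloured and a black bar at the list's median. The female-biased list has a median of 2.96 and the male-biased list one of -0.79, while the fatty acid list lies at 0.02.

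To see which changes differed between the ends of the proximal tubule, the change in S3 cells was tested against that in S1 cells of the same mice, with the mouse as a block. In S1 cells alone 46 of 13836 genes were higher and 11 lower. The change itself differed for 286 of 14194 genes, which is 2.01% of them, 230 with a more positive and 56 with a more negative change in S3 cells. Leaving out sham mouse 2 gave 503 and 325 such genes, and leaving out each of the other mice 76 to 121 and 26 to 33.

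Odc1 fell in S3 cells, and its log2 change in S1 cells was -0.10 (SE 0.14, adjusted p = 0.825), so that the changes differed by -1.37, SE 0.13, adjusted p = 0.000103. Cyp4a12a fell in both, by 2.07 in S1 cells (adjusted p = 0.0351), and the difference was -2.18, SE 0.35, adjusted p = 0.00542. For Slco1a1 the S1 change was -2.63 (SE 0.47, adjusted p = 0.0645) and the difference -0.67, SE 0.52, adjusted p = 0.610, which is not past the threshold. S1 cells held little Slco1a1, with 3.40 CPM in sham and 0.531 CPM in DOCA-salt mice, against 176 and 19.4 CPM in S3 cells. Cells with at least 2 Ptprc UMIs, which should lack it, had 8.56 and 0.565 CPM. The part of free RNA in the S1 change was not tested. Spp1 had a change of 1.78 (SE 0.35, adjusted p = 0.0800) in S1 cells, and its log2 change in S3 cells was larger by 1.91, SE 0.16, adjusted p = 0.000134. Its level was higher in S1 cells in both groups. Scaled to the library total, it had 1505 CPM in sham and 5344 CPM in DOCA-salt S1 cells, against 124 and 1660 CPM in S3 cells. Slc38a3 had 2.75 (SE 0.46, adjusted p = 0.0535) in S1 cells and a difference of -0.29, SE 0.47, adjusted p = 0.830. Its S1 level was near the floor, with 0.358 CPM in sham and 2.53 CPM in DOCA-salt mice, against 7.28 and 38.9 CPM in S3 cells. Gsta2 and Gsta4 had differences of 1.14, SE 0.11, adjusted p = 0.000103 and 2.07, SE 0.20, adjusted p = 0.000103. Both stood higher in S1 cells. Gsta2 had 442 CPM in sham and 514 CPM in DOCA-salt S1 cells, against 185 and 471 CPM in S3 cells. For Gsta4 these levels were 32.0 and 31.4 CPM against 3.32 and 14.4 CPM.

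Mme, called higher in S3 cells, had a change of -0.39 (SE 0.16, adjusted p = 0.375) in S1 cells (difference 1.30, SE 0.19, adjusted p = 0.00542). Fhl2, a LIM-domain cofactor, and Maml2, a Notch coactivator, rose in S3 cells by 2.07 ± 0.23 and 2.17 ± 0.27, with S1 changes of -0.16 and -0.47 (differences 2.28, SE 0.17, adjusted p = 3.82e-05 and 2.57, SE 0.31, adjusted p = 0.00374). Car3, a carbonic anhydrase, rose in S3 cells by 1.72 ± 0.31 (adjusted p = 0.00853) and had -1.44 (SE 0.30, adjusted p = 0.0925) in S1 cells (difference 3.24, SE 0.29, adjusted p = 0.000198). In the other direction, Chst11, a chondroitin sulfotransferase, rose in S1 cells by 1.86 (SE 0.21, adjusted p = 0.0192) and had 0.24 ± 0.16 in S3 cells (difference -1.61, SE 0.13, adjusted p = 6.08e-05). C3, the central complement component, rose in S1 cells by 2.49 (SE 0.19, adjusted p = 0.00632) and in S3 cells by 1.09 ± 0.28 (adjusted p = 0.0444; difference -1.32, SE 0.29, adjusted p = 0.0489). Cadm1, an adhesion molecule, fell in S3 cells by 1.10 (adjusted p = 0.00372) and had 0.01 (SE 0.14, adjusted p = 0.984) in S1 cells (difference -1.11, SE 0.13, adjusted p = 0.000908). Inmt, by contrast, fell in both segments, by 1.85 in S3 and 2.03 in S1 cells, and the difference was 0.19, SE 0.12, adjusted p = 0.502. Cells with at least 2 Ptprc UMIs had 125 CPM of Inmt in sham and 24.8 CPM in DOCA-salt mice. S1 cells had 257 and 63.5 CPM, and the part of free RNA was not tested. The S3 calls lost when any 1 mouse was dropped were those of Car3 without DOCA-salt mouse 1, and C3 without sham mouse 1 or 3 or DOCA-salt mouse 1, 2 or 3, with adjusted p of 0.0557 to 0.171. These refits concern the S3 change only. The S1 changes and the differences of single genes are not given with a mouse left out. Without the Slc5a2 and Slc12a1 conditions, the S3 change of Car3 was 0.36 (adjusted p = 0.411). The S3 call of C3 was also lost at a minimum of 6000 UMIs (adjusted p = 0.0575) and without cells with a Cyp7b1 UMI (adjusted p = 0.0645).

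**Figure D5:**
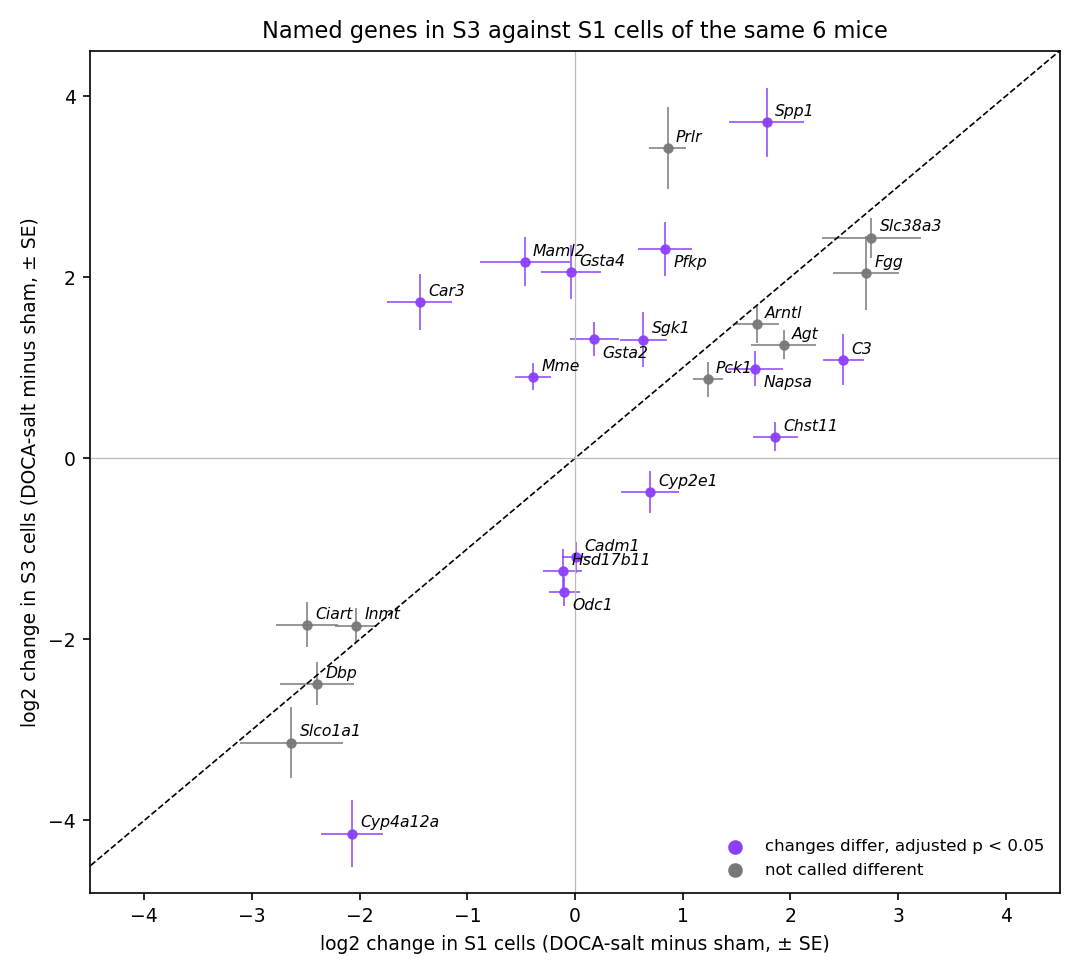
Log2 change of DOCA-salt against sham in S3 cells against that in S1 cells for 26 named genes, with SE bars, a dashed line of equal change, and in purple the genes whose changes differ by the test. Odc1 and Gsta2 lie near 0 in S1 cells and away from 0 in S3 cells, and Inmt and Dbp lie low in both.

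Single S3 cells differed widely in Kap. The Kap share of an S3 cell's UMIs ran from 1.34% at the tenth percentile to 10.1% at the ninetieth in sham mouse 1, with a median of 3.57%, and the medians of the 6 mice lay between 2.01% and 4.53%. Across the cells of each mouse the Kap share went with the mitochondrial share, with Pearson's r of 0.381 to 0.583 over 172 to 712 cells that share a library, and with Slc7a13 with r of 0.233 to 0.406. Slc7a13 is a gene of the rule that chose these cells, so its r is a description only. Immediate early genes took a median of 0.811% to 1.39% of a cell's UMIs and up to 2.84% to 3.84% at the ninetieth percentile, with overlapping groups.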

How the data were processed

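Kidneys of 3 sham and 3 DOCA-salt mice were dissociated, and cells were captured with 10x 3′ v3.1 chemistry. The authors deposited filtered matrices of raw UMI counts, from Cell Ranger (9.0.0 per the submitters' processing notes, 8.0.1 per the file headers) on GRCm39. The annotation release is not given in the sources used here. Seurat 4.0.0 in R 4.0.3 was used by the authors downstream, and none of its output was used here.

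S3 cells were taken by fixed UMI limits, and their UMIs were summed per mouse. Genes were filtered with filterByExpr and tested with edgeR 4.0.16 (TMM, robust quasi-likelihood F-test, R 4.3.3), with DESeq2 1.42.0 as an alternative. The filter asks for enough counts in at least 3 mice, so a gene can enter through its level in 1 group. Arg2, Irx1, Vcam1, Slc22a29, C1qa, C1qb, C1qc and Lyz2 entered through their DOCA-salt levels. S1 cells were summed likewise, and the difference of changes was fitted with the mouse as a block. Thinning drew 3000 UMIs per barcode. Doublets were scored with Scrublet in scanpy 1.11.5 as an alternative only, since doublets were not removed in the main counts. Tests were checked on simulated counts with a fixed dispersion. The simulation held no outlying mouse and no free RNA, so the check does not cover these. Summed depth was 2656904 to 10069552 UMIs per mouse, and a 3 against 3 exact permutation test cannot go below p = 0.1. The mice are separate animals.

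Genes named were the 12 largest rises and 12 largest falls among called genes whose groups did not overlap and whose mean level reached 20 CPM, the called genes of each of 26 lists (up to 6 in each direction by mean CPM), 34 genes named whatever the outcome, and the 6 largest differences between S3 and S1 changes in each direction by the same limits. Genes outside this rule that are named (such as Cyp4a12b, Nr1d1, Arntl and the genes of the cells with Cyp7b1) were chosen after their values were seen. Some genes that this rule names are not reported here, though the counts and medians of the lists include them. The members, lists and named genes were chosen with earlier results of these data known. Gene positions are from GENCODE M39 on GRCm39, which matched all 137 genes looked up.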

Additional observations from a re-analysis of the deposited data

Results flagged for a closer look

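The change in S3 cells differed from that in S1 cells of the same mice, by the test of the difference itself, for 35 of the genes reported here. The S3 change was more positive for Arg2 by 4.06, Irx1 by 3.75, Cyp7b1 by 3.49, Slc7a12 by 3.40, Car3 by 3.24, Maml2 by 2.57, Fhl2 by 2.28, Gsta4 by 2.07, Spp1 by 1.91, Myof by 1.68, Pfkp by 1.43, Mme by 1.30, Aldh1a1 by 1.18, Ccdc141 by 1.16, Gsta2 by 1.14, Gatm by 1.07, Cyp2d26 by 0.99, Hao2 by 0.94, Slc7a8 by 0.92, Fos by 0.84, Rarres2 by 0.80, Slc22a4 by 0.76, Sgk1 by 0.66, Cubn by 0.64 and Manf by 0.44. It was more negative for Cyp4a12a (-2.18), Chst11 (-1.61), Odc1 (-1.37), C3 (-1.32), Cadm1 (-1.11), Hsd17b11 (-1.07), Cyp2e1 (-1.06), Npm3 (-1.05), Slc5a12 (-0.79) and Napsa (-0.70). The adjusted p-values of these differences, from edgeR, ran from 3.82e-05 to 0.0489, with 3 mice in each group. Slc7a12 was too low in S1 cells to be tested there alone, so it has no S1 change of its own. Its S1 level was 0.587 CPM in sham and 1.12 CPM in DOCA-salt mice. The difference was called for 2.01% of all genes tested. Many genes were named for their S3 call or for this difference itself, so the count of 35 cannot be set against that share. Cyp7b1, Chst11, Gatm, Cyp2e1, Fos and Cubn were not called in S3 cells. Arg2 and Irx1 were low, with means of 0.670 and 1.75 CPM in sham S3 cells.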

How the results depend on the processing

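No called named gene turned sign in an alternative that tested it (72 of the 97 were tested after thinning, 93 at 20% mitochondrial UMIs, 94 without cells with a Cyp7b1 UMI, 96 with Scrublet doublets removed and 97 in the others), and of the 97 named or listed genes that were called, 41 stayed past the threshold whichever mouse was left out. Counts of called genes moved more. Leaving out 1 mouse gave 199 to 857 higher and 37 to 878 lower genes in S3 cells, and 76 to 503 genes with a more positive and 26 to 325 with a more negative change than in S1 cells, the upper values each without sham mouse 2. Without a filter on low counts the S3 counts were 884 and 548 and the difference counts 581 and 301. With barcodes thinned to 3000 UMIs they were 92 and 24, and 88 and 28, on fewer cells and UMIs. At most 20% mitochondrial UMIs gave 99 genes with a more negative change than in S1 cells, and scaling by library size only gave 107 with a more positive one. The replicate number as a block gave 235 higher and 46 lower genes. Deviations of same-numbered mice from their group means had correlations of -0.20, -0.35 and -0.09. With 3 mice per group these values cannot show whether a replicate number stands for a shared batch. DESeq2 gave 531 and 227. The replicate block ended the calls of 37 of the 97 named or listed genes that were called. Among them were Acads, Acox2, Alpl, B2m, C3, Cyp4b1, Dcdc2a, Dpp4, Fga, Fgg, Hspa5, Icam1, Ifitm3, Irx1, Itgb6, Manf, Mettl7a2 and Napsa. Also lost were Nfkbiz, Nr3c2, Pck1, Rhob, S100g, Sgk1, Slc13a2, Slc22a29, Slc22a4, Slc40a1, Slc43a2, Slc5a12, Slc6a20a, Socs3, Sqle, Vnn1 and Xbp1.

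Among the genes named in the text, calls were lost by DESeq2 for Slc5a12 and Xbp1, with DESeq2 size factors for Rhob, Slc40a1, Socs3 and Xbp1, with library size only for Apoe, Dcdc2a, Mettl7a2, Nr1d1, S100g, Slc5a12, Slc7a12 and Sparc, without a filter on low counts for Apoe, S100g, Slc7a12 and Sparc, at 20% mitochondrial UMIs for Apoe, Aqp3, Dcdc2a, H2-Aa, Ifitm3, S100g, Slc5a12, Slc7a12 and Sqle, at 6000 UMIs for C3, Mettl7a2 and Xbp1, at a marker sum of 8 for Nr3c2, Rhob, Slc40a1, Slc5a12, Socs3, Vnn1 and Xbp1, after thinning for Acads, Acox2, Alpl, Arntl, Cadm1, Cyp2d26, Degs2, Dpp4, Fgg, H2-Aa, Icam1, Manf, Mme, Nfkbiz, Nr3c2, Rhob, S100g, Sgk1, Slc13a2, Slc40a1, Slc43a2, Slc5a12, Slc6a20a, Sqle, Ugt2b38, Vnn1 and Xbp1, without the Havcr1 condition for Slc40a1 and Slc43a2, with Scrublet doublets removed for Ifitm3, Plvap, Rhob, Slc40a1, Slc5a12 and Socs3, without the Slc5a2 and Slc12a1 conditions for Car3, Gsta4, Ifitm3, Irx1, Nr3c2, Rhob, Sgk1, Slc22a4, Slc40a1, Slc43a2, Slc7a8, Socs3 and Ugt2b38, and without cells with a Cyp7b1 UMI for C3, Mme, Nr1d1, Nr3c2, Slc5a12 and Slc6a20a. Of these, the change was over 1.5 times smaller, after thinning, for Acads (-0.61), Alpl (0.23), Cyp2d26 (0.67), Fgg (0.95), Mme (0.48), Slc40a1 (0.35), Slc43a2 (0.19), Slc6a20a (0.36) and Sqle (0.39), with Scrublet doublets removed for Ifitm3 (0.07), Plvap (0.83) and Socs3 (0.48), without the Slc5a2 and Slc12a1 conditions for Car3 (0.36), Irx1 (1.30) and Slc7a8 (0.39), and without cells with a Cyp7b1 UMI for Mme (0.57). Calls that held moved by over 1.5 times at 20% mitochondrial UMIs for Mettl7a2 (5.22 against 2.68) and Socs3 (1.93 against 0.97), after thinning for Dbp (-1.64 against -2.49), Hsd17b11 (-2.03 against -1.24) and Slc22a4 (1.01 against 0.59), with Scrublet doublets removed for Sparc (2.18 against 3.41), without the Slc5a2 and Slc12a1 conditions for Arg2 (1.41 against 2.94), Cyp2d26 (0.71 against 1.32), Maml2 (1.27 against 2.17) and Slc22a29 (1.15 against 1.77), without cells with a Cyp7b1 UMI for Mep1b (0.69 against 1.30), Napsa (0.63 against 0.99) and Slc7a12 (1.82 against 4.03), and without DOCA-salt mouse 1 for Sgk1 (0.83 against 1.31). Genes not called in the main counts passed in some settings, namely Cubn without a filter on low counts and without sham mouse 2, Cyp2e1 without sham mouse 2, Cyp7b1 by DESeq2, after thinning and without the Slc5a2 and Slc12a1 conditions, Dcn with the replicate number as a block and without DOCA-salt mouse 2, Fos by DESeq2 and without a filter on low counts, Gatm without sham mouse 2, Lcn2 without a filter on low counts, Serpina1f by DESeq2, with the replicate number as a block, without DOCA-salt mouse 1, without DOCA-salt mouse 2, after thinning, without the Havcr1 condition, without the Slc5a2 and Slc12a1 conditions and without cells with a Cyp7b1 UMI, and Slc5a1 without sham mouse 2. The genes whose log2 change turned sign were not called in the main counts. P2rx4 was 0.0136 with library size only, 0.102 at 20% mitochondrial UMIs, 0.00536 at 6000 UMIs, 0.0309 at a marker sum of 8, 0.0248 without the Slc5a2 and Slc12a1 conditions and 0.0407 without cells with a Cyp7b1 UMI. Nox4 was -0.0690 after thinning and -0.0165 without the Slc5a2 and Slc12a1 conditions, Krt18 -0.187 at a marker sum of 8 and -0.00974 without cells with a Cyp7b1 UMI, Jun 0.00671 without the latter and Hsd11b1 0.0750 at 20% mitochondrial UMIs. With single mice left out, the log2 change ran from -0.199 to 0.0441 for Jun, -0.119 to 0.392 for Krt8, -0.0561 to 0.382 for Nox4, -0.00845 to 0.142 for Nr3c1 and -0.207 to 0.0976 for P2rx4. The cause of these moves was not tested.

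The share of S3 cells was lower in DOCA-salt mice in each alternative, with differences of -2.24 to -9.24 percentage points, and of -4.97 to -1.90 with 1 mouse left out, the smallest without sham mouse 2. All alternatives kept a condition on Slc7a13 and Slc22a30, and DOCA-salt S3 cells held a lower median of Slc7a13 UMIs. The part of this in the shares was not tested. Depth limits genes below about 1 CPM, which rest on few UMIs per mouse.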
